A study of Homo sapiens with 6 samples.

Results

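Interferon-stimulated genes are genes that a cell transcribes at a higher rate once interferon has bound its receptors. A set of 45 such genes was taken by gene symbol, and 44 of them had at least 1 probe set of their own, among 11963 genes with one on the arrays. These 44 genes had 72 probe sets. The signal of STAT2 is not analysed here, and 2 probe sets that a member shared with another gene were not used. RNA came from SUM-159 cells, which derive from a breast carcinoma of the triple-negative type, carrying either the empty pcDNA 3.1 plasmid or pcDNA 3.1 with wild-type SH3GL2 (endophilin A1), and each line was read on 3 of 6 Affymetrix U133A 2.0 arrays. Both lines were stable transfectants kept in G418, and neither is labelled as treated with interferon. Whether a line was a pool or 1 clone, and whether the 3 arrays of a group came from separate cultures, is not given in the sources used here, so p-values measure only the spread between these arrays, which may be technical. The comparison asks which interferon-stimulated genes differed between the 2 lines, and in which subfamilies.

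Type I interferons act through the receptor IFNAR, whose kinases JAK1 and TYK2 activate STAT proteins. STAT proteins and IRF9 then enter the nucleus and bind the interferon-stimulated response element, a DNA element built from paired GAAA units, in the promoters of their targets. Many of the induced proteins restrict viruses: IFIT proteins bind viral RNA, OAS enzymes make a messenger that activates an RNase, IFITM proteins block entry at membranes, and MX proteins are antiviral GTPases. ISG15 is a ubiquitin-like protein that a small enzyme system attaches to other proteins and removes again.

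All values are log2 signals as deposited, and a difference of 1 is a 2-fold change. Array medians lay between 6.97 and 7.02. As a reference, 80 probe sets of transcripts from other organs were taken, whose median was 5.03 and whose 95th percentile was 7.47, and a probe set under that percentile was not clearly above what an absent transcript can give. SH3GL2 itself, the transfected gene, read 3.24, 3.18 and 3.25 with empty vector and 3.15, 3.33 and 3.29 with SH3GL2 (log2 fold change 0.03, adjusted p = 0.909 from limma), below the reference median in both groups, so this probe set could not check the labels. All 10 genes listed as typical of SUM-159 (such as VIM, CD44 and AXL) were above the 95th percentile. Of these 10, 5 were called lower and 0 higher with SH3GL2, against 2.36% and 2.54% of all genes. Of 8 genes listed as lacking (such as ESR1 and CDH1), GATA3 alone was above it, at 9.57 with empty vector. Of 23 leukocyte markers, 0 were called in either direction on the probe set used for the gene. At the shares of all genes just given, 0 calls do not set this list apart. The mean signal of the 23 was 5.75 to 5.86 with empty vector and 5.77 to 5.84 with SH3GL2. LCP1 and LAPTM5 were the only ones above the 95th percentile with empty vector, and PTPRC, the pan-leukocyte antigen, was below the reference median. Another probe set of NCAM1, a natural killer cell marker that other tissues also express, was lower with SH3GL2 (-1.98, adjusted p = 4.92e-06 from limma), while the one used for the gene was not called (-0.11). The gap between the 3′ and 5′ control probe sets was 2.12 to 2.21 with empty vector and 2.03 to 2.25 with SH3GL2 for ACTB, and 0.32 to 0.37 and 0.31 to 0.33 for GAPDH.

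Promoter sequence is shown first for 5 genes, chosen because they set members that rose beside close relatives that were not called. IFIT1 rose about 3-fold while its neighbour on chromosome 10, IFIT5, was not called. IFI27 rose and IFI6, both small interferon-induced membrane proteins, was not called. ISG15 rose and is the founding member of its system. Each sequence is the 130 bases before the annotated start, from RefSeq promoters on GRCh38.p14, read 5′ to 3′ on the gene's strand: chr10:89392493-89392622 for IFIT1 and chr10:89414438-89414567 for IFIT5 on the plus strand, chr14:94110606-94110735 for IFI27 (the first of its 2 starts) on the plus strand, chr1:27672193-27672322 for IFI6 on the minus strand, and chr1:1013367-1013496 for ISG15 on the plus strand. Capitals mark each match to GAAANNGAAA or its reverse complement TTTCNNTTTC, a simple form of the response element, and overlapping matches run together.
IFIT1: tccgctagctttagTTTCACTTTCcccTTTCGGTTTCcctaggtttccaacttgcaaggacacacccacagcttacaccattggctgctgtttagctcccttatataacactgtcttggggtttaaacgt
IFIT5: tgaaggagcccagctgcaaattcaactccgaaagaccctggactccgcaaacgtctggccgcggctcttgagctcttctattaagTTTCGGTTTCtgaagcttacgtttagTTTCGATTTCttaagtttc
IFI27: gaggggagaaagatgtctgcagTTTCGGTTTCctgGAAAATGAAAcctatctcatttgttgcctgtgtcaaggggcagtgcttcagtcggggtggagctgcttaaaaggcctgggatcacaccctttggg
IFI6: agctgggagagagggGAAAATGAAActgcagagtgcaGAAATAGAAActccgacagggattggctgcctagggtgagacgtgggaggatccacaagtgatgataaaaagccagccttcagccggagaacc
ISG15: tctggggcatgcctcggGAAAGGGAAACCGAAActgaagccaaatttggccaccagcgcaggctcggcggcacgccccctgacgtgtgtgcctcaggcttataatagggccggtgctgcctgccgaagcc
In the printed windows IFIT1, IFIT5, IFI27, IFI6 and ISG15 each held 2 matches. Those of IFIT1 began 116 and 103 bases before the start, on the strand that reads TTTC, and those of IFIT5, also reading TTTC, began 45 and 19 bases before it. IFI27 held 1 match on each strand, at 108 and 95 bases. The 2 matches of ISG15 shared a GAAA unit and began 113 and 107 bases before the start. IFI6, which was not called, had matches at 115 and 93 bases, and a further one at 156 lies outside the printed stretch. The element was thus present in the printed windows of called and uncalled genes alike, which says nothing about factor binding.

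Of the 45 genes, 34 were in the promoter table, with 47 windows. Within the 250 bases before a start, 20 of the 34 (58.8%) held GAAANNGAAA on either strand, against 1014 of 27305 genes of the table (3.71%). Among the members called higher that were in the table, 6 of 7 held it, UBE2L6 being the one that did not, and among those not called 14 of 26 (53.8%) did. STAT2, also among the 34, held no such match and is in neither count. The element of interferon gamma signaling, TTCNNNGAA, which reads the same on both strands and can overlap the first motif, was found in 9 of the 34 (26.5%) and in 8.09% of all genes of the table. It was held by 1 of the 7 members called higher (14.3%) and by 8 of the 26 not called (30.8%). These are matches of letters only. OAS2, OASL, GBP2, USP18, IFIT2, IRF2, PML, IFITM2, TRIM22, MX2 and IRF7 were not in the table.

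With 1 probe set for each gene, the one with the highest mean signal, 10 of the 44 interferon-stimulated genes were higher with SH3GL2 and 0 were lower (adjusted p under 0.05, limma with Benjamini-Hochberg adjustment over 22215 probe sets). Of all 11963 genes, 2.54% were higher and 2.36% were lower. The members were chosen with earlier results of these data known, so the counts and shares here describe the set and do not test it. The 10 were IFIT1, OASL, IFIT3, IFIT2, ISG15, TRIM22, IFI27, IFIH1, IFI44 and UBE2L6. At an unadjusted p under 0.05 in limma, 25 members were higher and 1, SP100, was lower, against 9.94% and 7.56% of all genes. In the analysis of variance, another test of the same values, 19 were higher and 1 lower before adjustment, against 8.23% and 5.99% of all genes, and 0 were higher after it, against 0.167%. The 3 SH3GL2 arrays lay above all 3 empty vector arrays for 24 of the 44 members, against 11.9% of all genes, and below them for 1 (SP100), against 8.7% of all genes. The median log2 fold change of the 44 members was 0.21, against 0.02 over all genes, and 36 members (81.8%) were above 0, against 54.8% of all genes. Counted by probe set, 12 of 72 were higher and 0 lower, against 1.99% and 2.18% of all probe sets, and the 11th gene called in this way was ISG20. The mean signal of the 44 genes was 7.76 to 7.77 on the empty vector arrays and 7.97 to 8.02 on the SH3GL2 arrays. Arrays of bulk RNA cannot tell a higher level in every cell from a larger share of cells with the transcript. With signals floored at the reference median 1 of the 10, IFIT1, was still called, although no value of these 10 probe sets lay below that median. Without the intensity trend of the fit IFIT3, IFI44, IFIH1 and UBE2L6 lost their calls. The count fell to 6 without empty vector replicate 1 and to 6 without SH3GL2 replicate 3, and was 7 to 9 without each of the other 4 arrays.

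**Figure D1:**
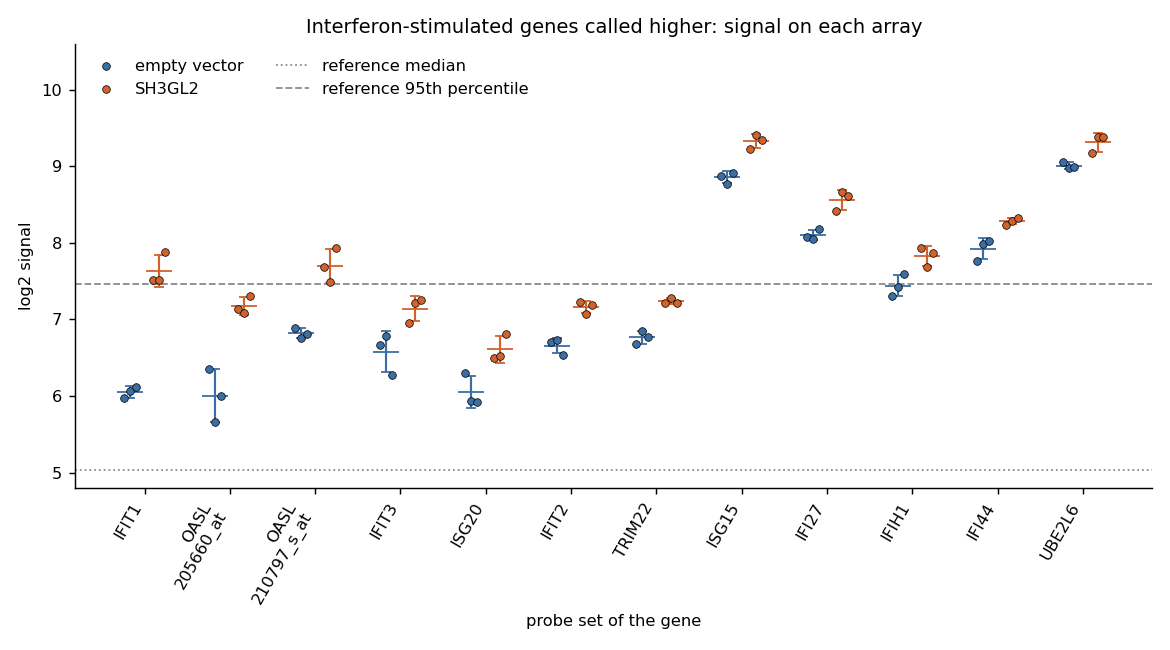
Log2 signal on each array (y axis) for the 12 probe sets of the 11 interferon-stimulated genes called higher on any probe set (x axis), with points for single arrays and bars for the mean and SD of 3 arrays. In every one of them the SH3GL2 points lie above the empty vector points, which was so for 11.9% of all genes. The probe sets are shown because they were called higher, so this separation is not a further result. IFIT1 moves furthest, from a mean of 6.05 to 7.64, and the lines at 5.03 and 7.47 give the reference median and 95th percentile.

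By subfamily, the median log2 fold change was 0.53 for IFIT, 0.30 for the ISG15 system, 0.24 for IFI, 0.22 for the other effectors, 0.21 for TRIM, 0.19 for the sensors, 0.18 for the IRF genes, 0.16 for OAS, 0.15 for IFITM, 0.06 for GBP, 0.04 for MX and -0.10 for the nuclear body genes. These medians rest on 2 to 6 genes each, and the differences between subfamilies were not tested. With 2.54% of all genes called higher, 0 calls in so small a subfamily do not set it apart. Members of IFIT ran from -0.05 to 1.58 and those of OAS from -0.11 to 0.88.

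The IFIT subfamily, whose proteins bind viral RNA through tetratricopeptide repeats, had 3 of its 4 members called. IFIT1 read 5.97, 6.07 and 6.12 with empty vector and 7.52, 7.51 and 7.88 with SH3GL2. Its groups were far apart, at a log2 fold change of 1.58 (SE, the standard error, 0.11, adjusted p = 3.25e-06 from limma), and it was the only member that rose at least 2-fold on the probe set used for its gene. The empty vector mean of IFIT1, 6.05, was under the 95th percentile of the reference, and its SH3GL2 mean, 7.64, was over it.
IFIT2, which partners IFIT1 and IFIT3 in a complex, read 6.71, 6.73 and 6.54 with empty vector and 7.23, 7.07 and 7.19 with SH3GL2. It rose by 0.50 (SE 0.09, adjusted p = 0.00705 from limma), and its call held without each of the 6 arrays, at an adjusted p of up to 0.0467. Both means of IFIT2, 6.66 and 7.16, lay under the 95th percentile of the reference. IFIT3 read 6.67, 6.79 and 6.28 with empty vector and 6.95, 7.22 and 7.25 with SH3GL2. Its lowest SH3GL2 array was only a little above its highest empty vector array, and it rose by 0.56 (SE 0.13, adjusted p = 0.0301 from limma). That call ended without empty vector replicate 1 (adjusted p = 0.0552) or 3 (0.0877) and without SH3GL2 replicate 2 (0.0805) or 3 (0.146). The means of IFIT3, 6.58 and 7.14, also lay under that percentile. IFIT5 read 8.51, 8.49 and 8.75 with empty vector and 8.61, 8.38 and 8.60 with SH3GL2. The groups of IFIT5 overlapped, its log2 fold change was -0.05 with a 95% interval of -0.25 to 0.15 (adjusted p = 0.856 from limma), and its other probe set read -0.08. IFIT1 and IFIT5 were thus 1.64 apart in log2 fold change, and IFIT3 and IFIT5 0.61 apart. Such gaps between a called and an uncalled relative are descriptions, since the pairs follow from the calls. IFIT1 kept its call without each array in turn.

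In the OAS subfamily 1 of the 4 members was called, and the median log2 fold change was 0.16. OASL, an OAS-like protein that lacks the synthetase activity and enhances RIG-I signaling, was called on both of its probe sets. On the brighter one it read 6.89, 6.76 and 6.81 with empty vector and 7.69, 7.49 and 7.93 with SH3GL2, a rise of 0.88 (SE 0.11, adjusted p = 3.52e-04 from limma). On the other it read 6.35, 5.66 and 6.0 with empty vector and 7.14, 7.09 and 7.31 with SH3GL2, a rise of 1.18 (SE 0.14, adjusted p = 3.59e-04 from limma). Neither pair of groups overlapped, and both calls held without each array. OAS3, a synthetase that responds to long double-stranded RNA, read 7.43, 7.49 and 7.51 with empty vector and 7.53, 7.54 and 7.59 with SH3GL2. These groups did not overlap either, but the difference was 0.08 (95% interval -0.09 to 0.25, adjusted p = 0.728 from limma). OAS1 and OAS2 had empty vector means of 4.65 and 4.33, below the reference median, so their log2 fold changes of 0.25 and -0.11 (adjusted p = 0.329 and 0.721 from limma) say little about either transcript. The log2 fold change of OASL exceeded that of OAS3 by 0.81.

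The 5 genes of the ISG15 system all had log2 fold changes above 0, from 0.16 to 0.47, and 2 were called. ISG15 read 8.88, 8.77 and 8.92 with empty vector and 9.23, 9.41 and 9.35 with SH3GL2, and the groups were clearly apart. It rose by 0.47 (SE 0.07, adjusted p = 0.00228 from limma), and its call held without each array. UBE2L6, the conjugating enzyme for ISG15, read 9.06, 8.98 and 8.99 with empty vector and 9.17, 9.39 and 9.38 with SH3GL2. It rose by 0.30 (SE 0.08, adjusted p = 0.0423 from limma), with SH3GL2 replicate 1 lower than the other two. The call of UBE2L6 ended without any one of the 3 empty vector arrays (adjusted p = 0.0772, 0.161 and 0.125) and without SH3GL2 replicate 2 (0.105) or 3 (0.205). HERC5, the main ligase for ISG15 in human cells, read 0.36 higher on the log2 scale (adjusted p = 0.0721 from limma) at signals below the reference median, 4.36 with empty vector and 4.72 with SH3GL2. HERC6, its relative, had 0.29 (adjusted p = 0.255), and USP18, the protease that removes ISG15 and also blocks the interferon receptor, had 0.16 (adjusted p = 0.544).

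Of the 6 IFI genes, which share a name rather than a function, 2 were called. IFI27, a mitochondrial protein, read 8.08, 8.05 and 8.18 with empty vector and 8.42, 8.66 and 8.61 with SH3GL2. It rose by 0.46 (SE 0.08, adjusted p = 0.00675 from limma), and the groups did not overlap. The call of IFI27 held without each array, at an adjusted p of up to 0.0496, close to the threshold. IFI44 read 7.77, 7.99 and 8.02 with empty vector and 8.24, 8.29 and 8.33 with SH3GL2, a rise of 0.36 (SE 0.09, adjusted p = 0.0326 from limma). That call ended without empty vector replicate 1 (adjusted p = 0.108) or 2 (0.0717) and without SH3GL2 replicate 1 (0.0618), 2 (0.0624) or 3 (0.153), and the other probe set of IFI44, below the reference median with empty vector at 4.51, read 0.18 (adjusted p = 0.528). IFI44L, the gene beside IFI44, differed by 0.02 (adjusted p = 0.965), but its means of 5.84 and 5.85 lay under the 95th percentile of the reference. IFI6, an inhibitor of apoptosis, differed by -0.05 (adjusted p = 0.857). IFI16, a nuclear DNA sensor, read 10.59, 10.52 and 10.83 with empty vector and 10.99, 10.71 and 10.91 with SH3GL2. Its groups overlapped, at 0.22 (adjusted p = 0.216), with a range of 0.01 to 0.24 over its 3 probe sets. IFI35 had 0.26 (adjusted p = 0.154) without overlap between the groups.

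**Figure D2:**
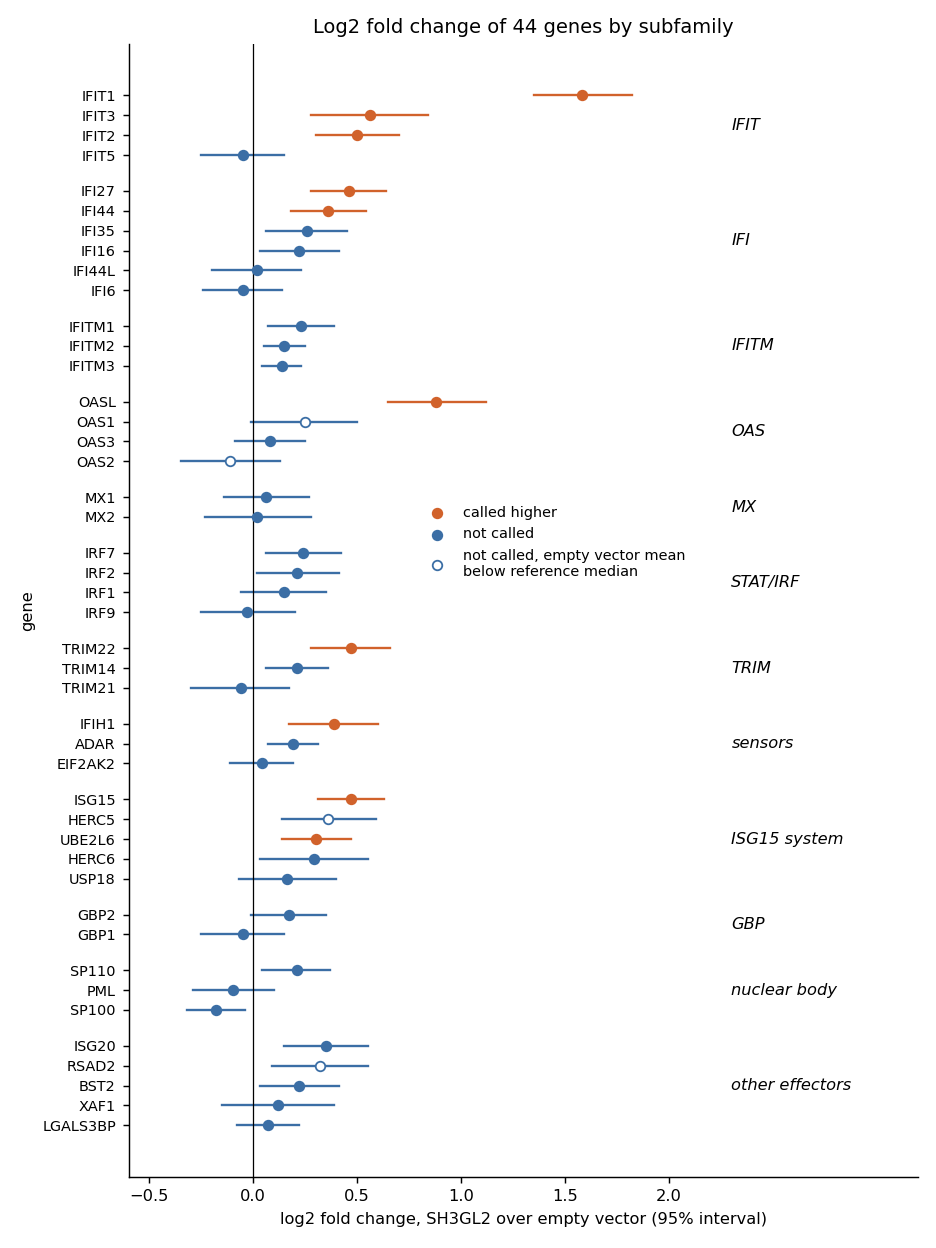
Log2 fold change of SH3GL2 over empty vector (x axis) with its 95% interval for each of the 44 interferon-stimulated genes (y axis), ordered by subfamily, on the probe set with the highest mean signal. The 10 called genes are spread over 6 of the subfamilies, IFIT1 at 1.58 and OASL at 0.88 stand to the right of the rest, and open points mark 4 genes whose empty vector mean lay below the reference median.

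Of the 3 genes of the tripartite motif (TRIM) family, TRIM22 was called. TRIM22, a ubiquitin ligase that restricts several viruses, read 6.68, 6.85 and 6.77 with empty vector and 7.22, 7.28 and 7.21 with SH3GL2. It rose by 0.47 (SE 0.09, adjusted p = 0.00706 from limma), and the call held without each array, although both means, 6.77 and 7.24, lay under the 95th percentile of the reference. TRIM14, an adaptor of mitochondrial antiviral signaling, read 9.91, 9.83 and 9.91 with empty vector and 9.97, 10.18 and 10.14 with SH3GL2. It was not called at 0.21 (adjusted p = 0.124 from limma), and without SH3GL2 replicate 1 it was (adjusted p = 0.0456). TRIM21, the cytosolic antibody receptor, had -0.06 (adjusted p = 0.852).
Among the 3 sensors, IFIH1 (MDA5), which detects long double-stranded RNA, read 7.31, 7.43 and 7.59 with empty vector and 7.94, 7.68 and 7.87 with SH3GL2. It rose by 0.39 (SE 0.10, adjusted p = 0.0454 from limma), close to the threshold, and its other probe set, at 3.71 with empty vector, was below the reference median and read -0.01. The call of IFIH1 ended without empty vector replicate 1 (adjusted p = 0.140) or 2 (0.143), without SH3GL2 replicate 1 (0.149) or 3 (0.186), and with quantile normalization (0.0510). ADAR, which edits double-stranded RNA, read 10.92, 10.92 and 10.84 with empty vector and 11.02, 11.11 and 11.12 with SH3GL2. These groups did not overlap, yet the difference of 0.19 did not pass the test (adjusted p = 0.0829 from limma). EIF2AK2 (PKR), the kinase that halts translation on double-stranded RNA, had 0.04 (adjusted p = 0.840).

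The 3 IFITM probe sets were bright, at 11.34 to 12.95 with empty vector. Of the 3, 0 were called, against 2.54% of all genes called higher. IFITM3 read 13.00, 12.89 and 12.95 with empty vector and 13.04, 13.11 and 13.10 with SH3GL2. The groups of IFITM1, IFITM2 and IFITM3 did not overlap, with SH3GL2 higher each time, which was so for 11.9% of all genes. The log2 fold changes of these 3 genes were 0.23, 0.15 and 0.14 (adjusted p = 0.107, 0.113 and 0.127 from limma). Their 95% intervals reached 0.39, 0.25 and 0.23. These near-identical genes can share probes, so the 3 values are not independent.
The MX genes gave little change at low signal. MX2 read 5.93, 5.93 and 5.53 with empty vector and 5.92, 5.74 and 5.80 with SH3GL2, which overlapped (0.02, 95% interval -0.23 to 0.28, adjusted p = 0.957 from limma). MX1 had 0.06 (95% interval -0.14 to 0.27, adjusted p = 0.827), and both means of each gene lay between the reference median and the 95th percentile.

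Of the transcription factors, the 4 measured IRF genes were not called. IRF1, a factor that interferon gamma induces early, read 8.02, 7.77 and 7.98 with empty vector and 8.10, 7.92 and 8.19 with SH3GL2. Its groups overlapped, and its log2 fold change was 0.15 (adjusted p = 0.527 from limma). IRF7, the factor that amplifies interferon production, had 0.24 without overlap (adjusted p = 0.143), IRF2 had 0.21 (adjusted p = 0.260), and IRF9, the DNA-binding subunit of the interferon-activated complex, had -0.03 (95% interval -0.25 to 0.20, adjusted p = 0.943).
The guanylate-binding proteins, GTPases best known as targets of interferon gamma, were not called. GBP1 read 7.79, 8.02 and 7.90 with empty vector and 7.74, 8.0 and 7.83 with SH3GL2, which overlapped (-0.05, adjusted p = 0.877 from limma), and GBP2 had 0.17 (adjusted p = 0.360).

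The nuclear body genes contained the lowest log2 fold change of the set. SP100, a core component of PML nuclear bodies, read 10.12, 10.02 and 10.11 with empty vector and 9.88, 9.84 and 9.98 with SH3GL2. All 3 SH3GL2 arrays lay below all 3 empty vector arrays, with a difference of -0.18 that did not pass the test (SE 0.06, adjusted p = 0.157 from limma). All 5 probe sets of SP100 had a value below 0, from -0.27 to -0.07. PML itself had -0.10 (adjusted p = 0.694), with 6 of 8 probe sets below 0, while SP110 had 0.21 (adjusted p = 0.190), with 4 of 4 above 0. Probe sets of 1 gene share its RNA and are not replicates.
Among the other effectors, ISG20, an exonuclease, was called on 1 of its 2 probe sets. That probe set read 6.30, 5.94 and 5.92 with empty vector and 6.50, 6.52 and 6.81 with SH3GL2, a rise of 0.56 (SE 0.12, adjusted p = 0.0228 from limma). The call ended without empty vector replicate 2 (adjusted p = 0.0967) or 3 (0.0882) and without SH3GL2 replicate 3 (0.131), and the brighter probe set of ISG20 had 0.35 (adjusted p = 0.0553). Both probe sets of ISG20 lay under the 95th percentile of the reference in both groups. BST2 (tetherin), which holds budding virus at the cell surface, read 9.98, 9.74 and 10.01 with empty vector and 9.99, 10.28 and 10.13 with SH3GL2. Its groups overlapped, and its log2 fold change was 0.22 (adjusted p = 0.219 from limma). RSAD2 (viperin) had 0.32 without overlap (adjusted p = 0.127), but its means of 3.99 and 4.31 lay below the reference median. XAF1 had 0.12 and LGALS3BP 0.07 (adjusted p = 0.732 each).

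Called genes were found at both middle and high baseline signal. With empty vector, 24 of the 44 members exceeded the reference's 95th percentile, and 4 of the 24 were called (ISG15, UBE2L6, IFI27 and IFI44), against 3.49% of all genes in that range. Another 16 lay between the median and the 95th percentile, and 6 of the 16 were called (IFIT1, OASL, IFIT2, IFIT3, TRIM22 and IFIH1), against 2.35%. The remaining 4, OAS1, OAS2, HERC5 and RSAD2, lay below the median, and 0 of 4 were called, against 0.227%. Median log2 fold changes were 0.18, 0.26 and 0.28 in these 3 ranges. The 10 called genes had empty vector means of 6.05 to 9.01, and of the members not called, 9 lay above that range, among them the IFITM genes, ADAR and SP100, and 8 below it, among them MX1, MX2 and RSAD2. Probe sets differ in how brightly they bind the same amount of RNA, so a signal places a probe set against the reference and does not rank transcripts.

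**Figure D3:**
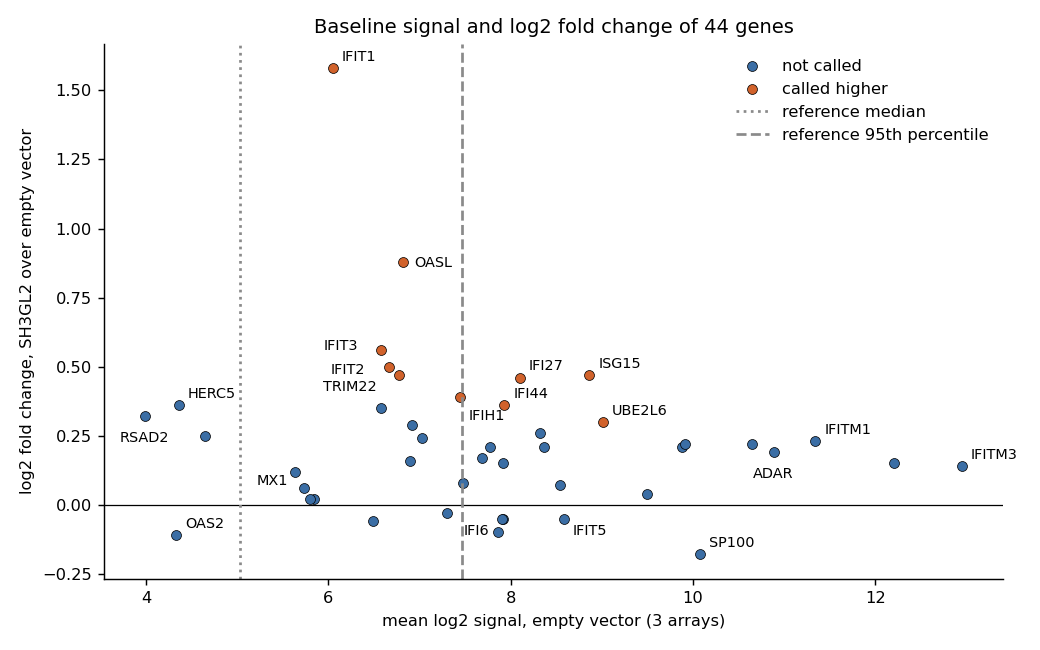
Mean log2 signal with empty vector (x axis, 3 arrays) against the log2 fold change of SH3GL2 over empty vector (y axis) for the 44 interferon-stimulated genes, with vertical lines at the reference median of 5.03 and the 95th percentile of 7.47. Called genes lie between 6.05 and 9.01, and IFIT1 and OASL, the genes with the most change, lie left of the 95th percentile with empty vector.

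The changes were small for most members. Of the 10 genes called, 8 rose by under 1.5-fold, and IFIT1 at 3.00-fold and OASL at 1.84-fold rose by more. Of the 34 not called, 26 were above 0 and 8 below, with a median of 0.15. For 33 of the 34 the 95% interval lay inside a 1.5-fold change either way (0.58 on the log2 scale), and that of HERC5 reached 0.59. A probe set near background can understate a change. The 34 had a mean signal of 7.85 to 7.88 on the empty vector arrays and 7.97 to 7.99 on the SH3GL2 arrays, and the 10 called genes 7.40 to 7.44 and 7.96 to 8.10.

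The genes upstream of the response were then read from lists, which were chosen with earlier results of these data known. Of all genes, 2.54% were higher and 2.36% lower. At these shares a list of 9 to 17 genes can hold 0 calls, so 0 calls do not set it apart. Of 21 listed interferon genes 14 were measured, all of them alpha, beta, gamma or omega genes. None of the 14 was called, none was above the 95th percentile of the reference, and 12 were below its median with empty vector. IFNB1, the beta interferon of most nonimmune cells, read 4.22, 3.85 and 4.16 with empty vector and 4.28, 4.12 and 4.09 with SH3GL2 (0.09, adjusted p = 0.793 from limma). Of 9 receptor and kinase genes 0 were called. IFNAR1 and IFNAR2, the chains of the type I receptor, had log2 fold changes of -0.17 and 0.04 (adjusted p = 0.561 and 0.886), and the kinases JAK1 and TYK2 had 0.09 and 0.11 (adjusted p = 0.537 and 0.502). Of 10 inhibitors, 1 was higher, PIAS2, a SUMO ligase, at 0.35 (adjusted p = 0.0450), and this call ended without any one of 5 of the 6 arrays. Of 17 genes of nucleic acid sensing and interferon induction 0 were called, and TRAF3, an adaptor of that pathway named after its value was seen, was nearest at 0.30 (adjusted p = 0.0509).

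Of 32 other interferon-induced genes, 4 were higher and 0 lower, against 2.54% and 2.36% of all genes. Their median log2 fold change was 0.05, against 0.02 over all genes. CXCL10, a chemokine that attracts T cells, read 5.15, 5.24 and 5.28 with empty vector and 6.94, 6.28 and 7.73 with SH3GL2, a rise of 1.76 (SE 0.25, adjusted p = 0.00114 from limma). Its 3 SH3GL2 arrays were widely spread but all above the empty vector arrays. RTP4 read 5.11, 5.13 and 5.11 with empty vector and 5.88, 6.01 and 6.06 with SH3GL2, a rise of 0.87 (SE 0.09, adjusted p = 1.24e-04 from limma). DDX60, a helicase, rose by 0.43 (adjusted p = 0.0263). CXCL11, another chemokine of the same receptor, rose by 0.66 (adjusted p = 0.00166) on a probe set below the reference median in both groups, and ZC3HAV1, an antiviral zinc finger protein, was called on 1 of its probe sets (0.38, adjusted p = 0.0445). The means of RTP4 and CXCL10 also lay under the 95th percentile in both groups.

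**Figure D4:**
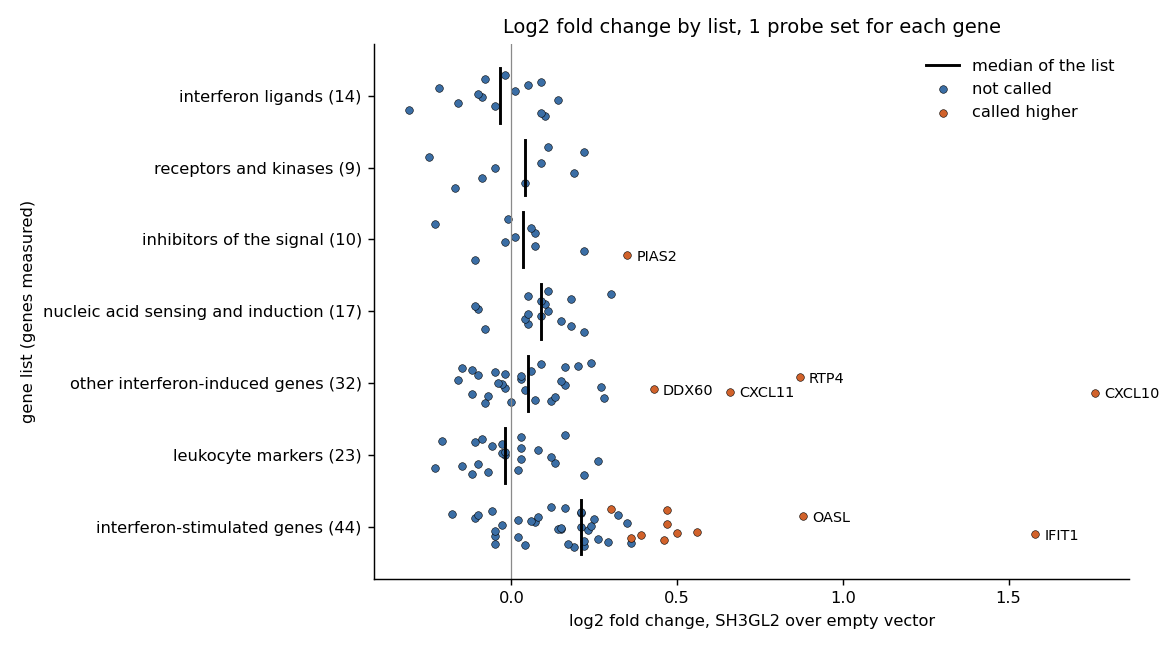
Log2 fold change of SH3GL2 over empty vector (x axis) of each measured gene, 1 probe set per gene, for 5 lists of the interferon pathway, for leukocyte markers and for the 44 interferon-stimulated genes (y axis), with black bars at list medians and orange points for genes called higher. The ligands, the receptors and kinases and the sensing genes hold no called gene, the other induced genes hold 4 with a median of 0.05, and the interferon-stimulated genes hold 10 with a median of 0.21. Of all genes, 2.54% were called higher and 2.36% lower, so a short list can hold no called gene at these shares.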

How the data were processed

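RNA of SUM-159 cells was read on 6 Affymetrix U133A 2.0 arrays, 3 for empty vector and 3 for SH3GL2, grouped by the sample titles. The authors used GCOS software for scanning and name GCOS manager for the analysis of the data. MAS5 is named in the submitters' notes with no version. The deposited signals are log2 values. Whether and how arrays were scaled to each other is not given in the sources used here. Values were used as deposited.

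Of 22277 probe sets, 62 controls were left out. The platform annotation gave 1 gene symbol to 19064 of the others, several to 1043 and none to 2108. Groups were compared with limma 3.58.1 in R 4.3.3 (lmFit, then a two-sided eBayes test with an intensity trend) and Benjamini-Hochberg adjustment over 22215 probe sets at a threshold of 0.05. A gene was represented by its probe set with the highest mean over all 6 arrays. The members and lists were chosen with earlier results of these data known. Named are the members called on any probe set, the member with the brightest probe set of each subfamily, up to 6 called genes of each pathway list, and 6 signaling genes, of which 1 is not reported here. Others are in ranges or by their values.

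The fit was tested on simulated data with normal noise. It recovered 6% of 50 probe sets changed 1.2-fold, 64% of 50 changed 1.5-fold and 92% of 50 changed 2-fold. A small change can thus go uncalled. The number of arrays limits precision, and an exact permutation test of 3 against 3 cannot go below 0.1. Replicate numbers were not taken as pairs, since they are not said to mark a shared culture or day. Residuals of arrays with the same number correlated at -0.01, 0.13 and 0.15, and those with different numbers at -0.16 to 0.02, which does not settle the pairing. A fit with a replicate block called 506 probe sets higher and 573 lower, against 441 and 485 without it. Promoter motifs were counted in the 250 bases before each RefSeq start (GRCh38.p14). Alternatives are given at the end. Plots were made in matplotlib 3.10.9 (Python 3.11.15).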

Additional observations from a re-analysis of the deposited data

How the results depend on the processing

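The 10 interferon-stimulated genes called higher became 1 with signals floored at the reference median (IFIT1), 6 without an intensity trend, 0 in the one-way analysis of variance, 6 in the brighter part (the 11106 probe sets with the highest means, where 6 of the 10 were tested), 6 at an adjusted p under 0.01, 2 with a change of at least 1.5-fold, and 6 to 9 when each array was left out in turn. With the floor, without the trend and in the analysis of variance the log2 fold changes of all 10 were those given above to 2 decimals, and only the p moved. The floor changed no value of these 10, so their p moved through other probe sets, which enter the variance estimate of the fit and the adjustment. Which of these moved it was not tested. Over all probe sets the 441 called higher became 138 with the floor, 270 without the trend, 33 in the analysis of variance and 184 to 376 without an array. Quantile normalization lost IFIH1, and centring each array on its median lost IFI44, IFIH1 and UBE2L6. Adding 16 before the logarithm lost IFIH1, and a robust prior added ISG20. Averaging a gene's probe sets lost IFI44 and IFIH1 and added ISG20. Both scalings moved the median of all genes by -0.01. The fit with a replicate block called the same 10 members, with 0 lost and 0 gained, and a median of 0.21. No called member changed direction under these alternatives.

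For all 44 genes the median of 0.21 was 0.18 with 16 added, 0.16 with the floor, 0.16 with the mean of probe sets, 0.13 over all probe sets and 0.17 to 0.23 without an array. The IFIT median was -0.05 in the brighter part, where IFIT5 alone was tested, and 0.43 to 0.60 without an array. The OAS median was 0.11 with 16 added, 0.04 with the floor, 0.48 in the brighter part, 0.12 with the mean of probe sets and 0.11 to 0.21 without an array. That of the other effectors was 0.17, 0.12 and 0.14 with 16 added, the floor and the brighter part, and 0.18 to 0.27 without an array. The TRIM median was 0.09 with the mean of probe sets and 0.17 to 0.28 without an array, the IFI median 0.19 to 0.30 and that of the nuclear body genes -0.18 to -0.05 without an array.

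Of the pathway lists, the 1 inhibitor called was 0 with centring, 16 added, the floor, no trend, the analysis of variance and the mean of probe sets, and 0 to 1 without an array. The sensing list had 1 call with quantile normalization, the brighter part, a robust prior, the replicate block and the mean of probe sets, and 0 to 1 without an array. The 4 other interferon-induced genes called became 1 with the floor, 1 in the brighter part and 1 in the analysis of variance, and 1 receptor or kinase gene was lower with the mean of probe sets. Signals near the reference limit what could be seen: 17 of the 44 genes were under its 95th percentile in both groups.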
